A study of Drosophila melanogaster with 9 samples.

Results

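The 94 genes described here are Drosophila genes whose deposited symbol is a CG number, a name given by the genome annotation before a gene has been studied, and whose mRNA was lower in stage 10 follicles of a temperature-sensitive ecdysone receptor mutant than in wild-type stage 10 follicles. They were chosen from group means of FPKM, the fragments per kilobase of transcript and M (1e6) mapped fragments that the authors deposited. The wild-type stage 10 mean had to be at least 3 FPKM, the mutant mean at most 0.6 times the wild-type stage 10 mean, and the wild-type stage 10 mean above 0.6 times and below 2 times the wild-type stage 8 mean. Of 15602 genes listed, 7708 had a CG symbol, 3192 of these reached 3 FPKM at wild-type stage 10, and 253 of those met the limit on the mutant. Another 150 of the 253 were left out because the wild-type stage 10 mean was at least 2 times that at stage 8, and 9 because it was at most 0.6 times. The means of all 3 groups chose the genes, so their differences between groups are given as descriptions. Where counts of limma calls among them are printed, the same share over all genes stands beside them, and the calls are no independent test of these genes.

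The samples were ovarian follicles of adult, fertilized females in 3 groups of 3 libraries, with 100 follicles in each sample and poly(A)-selected RNA. EcRts stage 10 follicles came from females mutant for EcR that were transferred, 2 days after they eclosed, to a temperature at which the mutant receptor fails. Wild-type stage 10 and wild-type stage 8 follicles made up the other groups. The labels give the strain Oregon R and an age of 6 to 14 days for all 9 samples, while the growth protocol gives 4 to 14 days, 25 °C and a rich diet for 36 h before dissection. The labels give neither that temperature nor the EcR alleles, no genetic background of the mutant beyond the strain, and nothing on whether the libraries of a group were collected from different females or on different days. The effect of the mutation and that of the temperature shift cannot be told apart, and the spread between libraries may be partly technical.

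A Drosophila egg chamber holds an oocyte and its nurse cells, which supply the oocyte with RNA and protein, inside a single layer of somatic follicle cells. Ecdysone is the insect steroid hormone, and its receptor is a pair of nuclear receptors, EcR and Ultraspiracle, that bind DNA and switch target genes on or off according to whether hormone is bound. In the ovary the hormone is known to act at the passage into yolk uptake and in the follicle cells that later build the eggshell. Reads of whole follicles mix these cell types, so fewer cells of a type and less RNA per cell cannot be told apart.

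The groups of libraries differed in depth, in the share of FPKM on scaffolds and in heat shock genes. The deposited confidence limits implied 27.2 to 33.3 M (1e6) fragments in EcRts, 17.5 to 21.3 M in wild-type stage 10 and 18.6 to 21.7 M in wild-type stage 8 libraries. Genes on unplaced and heterochromatic scaffolds took 28.5 to 31.9% of summed FPKM in EcRts, 10.3 to 12.1% in wild-type stage 10 and 18.3 to 22.5% in wild-type stage 8 libraries. Relative to the mean of all libraries, summed FPKM outside scaffolds was 0.902 to 0.940 in EcRts. It was 1.02 to 1.08 in wild-type stage 10 and 1.02 to 1.06 in wild-type stage 8 libraries. All 17 genes of a heat shock list were tested in limma on log2(FPKM + 1), and 16 were lower and 0 higher in EcRts than in wild-type stage 10, beside 33.9% and 9.93% of all tested genes, with a median log2 difference of -3.51; 15 were lower under each of the 3 other scalings. The list summed to 5952 to 6247 FPKM in EcRts, 10583 to 11942 in wild-type stage 10 and 7654 to 10525 in wild-type stage 8 libraries. The part of library composition and of heat shock in the values below was not tested. The EcR transcript itself averaged 20.6 ± 0.670 FPKM in EcRts, 21.0 ± 1.36 in wild-type stage 10 and 19.4 ± 0.446 in wild-type stage 8 follicles (SD, n = 3 each), which does not check the label of a mutation that acts on the protein.

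Over the 94 genes the median ratio of the EcRts mean to the wild-type stage 10 mean was 0.488. It was 0.913 over the other 3098 CG-named genes at or above the same level. The ratios ran from 0 to 0.599: 8 genes lay under 0.25, 18 between 0.25 and 0.4, 24 between 0.4 and 0.5, and 44 above 0.5. The genes summed to 1059 to 1186 FPKM in EcRts, 2371 to 2502 FPKM in wild-type stage 10 and 1815 to 1837 FPKM in wild-type stage 8 libraries. All 3 EcRts sums were below all 6 wild-type sums.

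All 3 EcRts libraries were below all 3 wild-type stage 10 libraries for 87 of the 94 genes, beside 43.2% of all 8340 genes tested. In limma, 82 of the 94 were called lower in EcRts than in wild-type stage 10 and 0 higher at a Benjamini-Hochberg adjusted p under 0.05 over all tested genes, beside 33.9% called lower and 9.93% called higher among all genes. With libraries scaled to equal summed FPKM outside scaffolds, 80 of the 94 were called lower, beside 13.1% of all genes, and all calls split into 1090 lower and 2076 higher in place of 2826 and 828. That scaling moved the median log2 difference of all genes to 0.06, against -0.12 as deposited. The rule used this contrast, so nothing is read from these counts. The 7 genes with overlapping groups were CG43220, CG3290, CG13321, CG13905, CG32023, CG30016 and CG3699. CG13323, CG6602, CG10469, CG5853 and CG13510 were the 5 further genes that limma did not call.

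**Figure D1:**
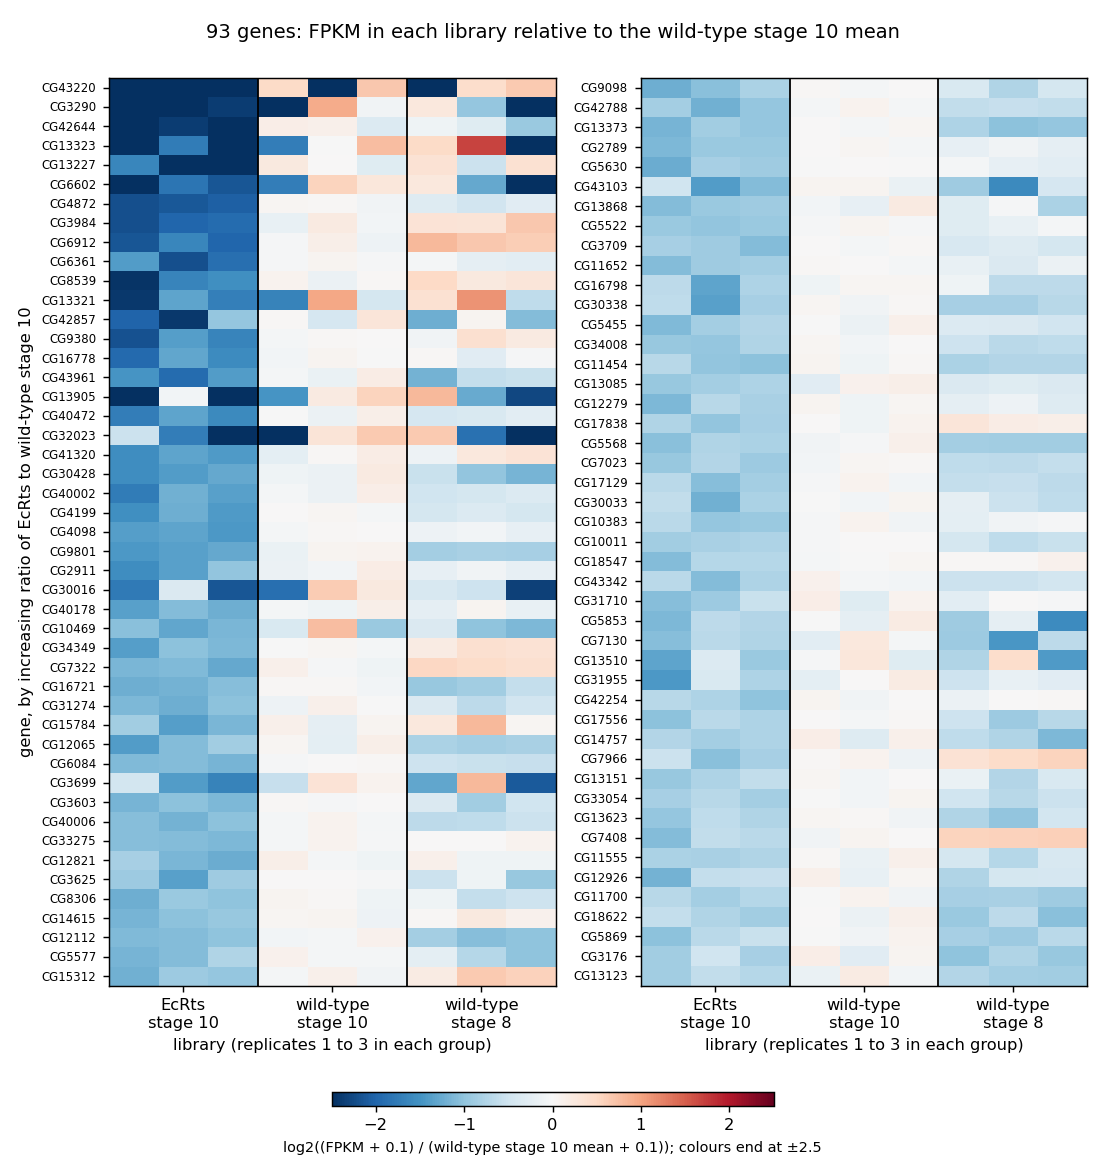
Colours give log2 of FPKM + 0.1 in each library over the wild-type stage 10 mean + 0.1, for 93 of the 94 genes in order of rising EcRts to wild-type stage 10 ratio, with EcRts stage 10, wild-type stage 10 and wild-type stage 8 libraries from left to right. The EcRts columns are blue in nearly every row, and the wild-type stage 8 columns run from blue to red; a few genes near the top of the left panel differ widely between libraries of 1 group.

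The genes were mostly of low abundance. Their median wild-type stage 10 mean was 10.5 FPKM, beside 24.7 FPKM for the other CG-named genes at or above 3 FPKM, and 45 of the 94 (47.9%) were under 10 FPKM, beside 16.1%. Only 11 of the 94 were over 50 FPKM. The median number of fragments per gene implied by the confidence limits was 173 to 254 in a library. The median coefficient of variation among wild-type stage 10 libraries was 7.67% for the 94 genes and 5.97% for the other CG-named genes.

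Among the most abundant genes, several have a known enzyme or subunit as product. CG6084, now named Akr1B, encodes an aldo-keto reductase, an NADPH-dependent enzyme that reduces aldehydes and sugars. It had 179, 181 and 171 FPKM in EcRts, against 374, 387 and 390 FPKM in wild-type stage 10 and 267, 261 and 258 FPKM in wild-type stage 8 libraries. Its 3 groups did not overlap, with EcRts lowest and wild-type stage 10 highest, and the ratio of EcRts to wild-type stage 10 was 0.461.

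CG2789, now Tspo, encodes the translocator protein of the outer mitochondrial membrane. Tspo had 50.5, 58.3 and 58.5 FPKM in EcRts, against 111, 115 and 107 FPKM in wild-type stage 10 and 96.3, 104 and 94.5 FPKM in wild-type stage 8 libraries. The EcRts libraries stood well below both wild-type groups, which lay close to each other.

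CG11652 (Dph1) and CG2911 (Dph4) both encode proteins of diphthamide synthesis, the pathway that modifies a histidine of translation elongation factor eEF2. CG11652 had 51.3, 58.4 and 59.9 FPKM in EcRts, against 111, 110 and 104 FPKM in wild-type stage 10 and 94.9, 84.6 and 98.1 FPKM in wild-type stage 8 libraries. CG2911 had 5.22, 6.03 and 7.86 FPKM in EcRts, against 14.1, 14.9 and 17.8 FPKM in wild-type stage 10 and 13.4, 14.6 and 13.6 FPKM in wild-type stage 8 libraries. For both genes every EcRts library was below every wild-type library. The confidence limits of CG2911 implied only 4, 27 and 168 fragments in EcRts, against 138 to 203 in each wild-type library. CG2911 overlaps Spec2, and without a stated strand setting reads from where genes overlap cannot be told apart.

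CG17556, now EMC2A, encodes a subunit of the ER membrane complex, which inserts membrane proteins. It had 43.6, 55.4 and 52.0 FPKM in EcRts, against 89.7, 86.2 and 90.5 FPKM in wild-type stage 10 and 61.9, 47.3 and 55.1 FPKM in wild-type stage 8 libraries. Its EcRts and wild-type stage 8 libraries overlapped, and both were below wild-type stage 10. CG11700, a ubiquitin-repeat gene, was likewise highest in wild-type stage 10, but its mean was lowest in wild-type stage 8. CG11700 had 39.8, 35.7 and 39.3 FPKM in EcRts, 64.3, 68.4 and 60.5 FPKM in wild-type stage 10 and 36.0, 36.9 and 34.5 FPKM in wild-type stage 8 libraries. The polyubiquitin gene Ubi-p5E next to it on X averaged 383 ± 12.7 FPKM in EcRts, 592 ± 25.9 in wild-type stage 10 and 307 ± 12.1 in wild-type stage 8 follicles (SD, n = 3 each). Reads of ubiquitin repeats may be split between such genes, so the level of CG11700 is uncertain.

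The remaining genes among the 10 of highest wild-type stage 10 mean were CG40472, CG40002, CG11555, CG13373 and CG5568. CG11555 had 47.9, 47.4 and 49.5 FPKM in EcRts, against 84.5, 73.6 and 90.4 FPKM in wild-type stage 10 and 61, 50.3 and 62.5 FPKM in wild-type stage 8 libraries. CG13373 averaged 33.8 ± 3.39 FPKM in EcRts, 67.4 ± 2.07 in wild-type stage 10 and 35.7 ± 3.27 in wild-type stage 8 follicles (SD, n = 3 each). CG5568 averaged 36.2 ± 3.74, 65.8 ± 5.02 and 36.0 ± 0.495 FPKM in the same order. In CG13373 and CG5568 the EcRts and wild-type stage 8 libraries overlapped.

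**Figure D2:**
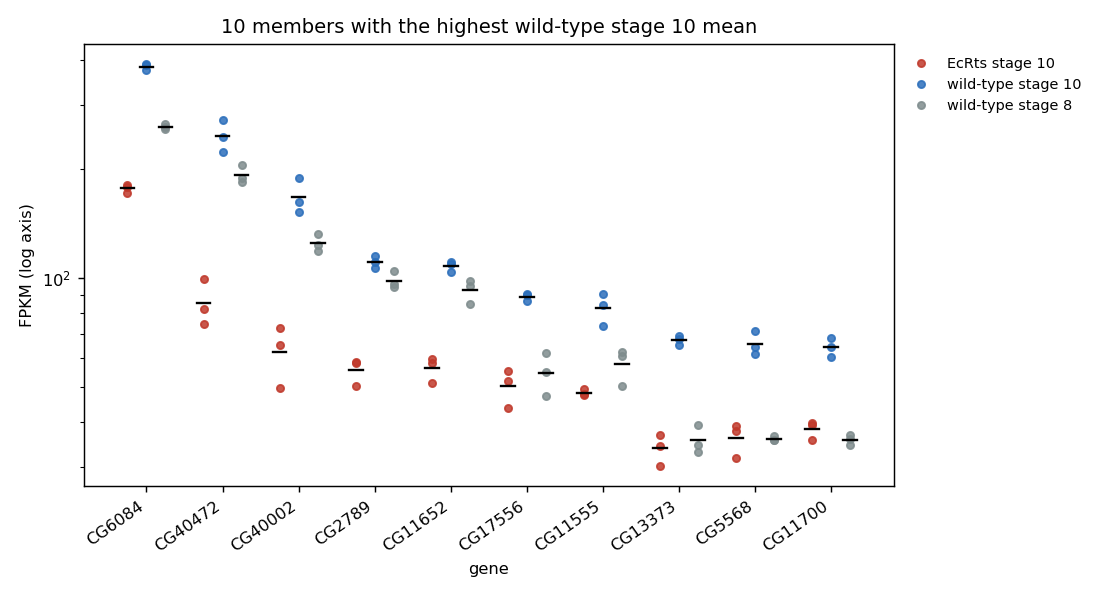
Points give FPKM in each library on a log axis for the 10 genes of highest wild-type stage 10 mean, with bars at the group means and EcRts stage 10, wild-type stage 10 and wild-type stage 8 from left to right within a gene. In each gene the 3 EcRts points are below the 3 wild-type stage 10 points, and for CG17556, CG13373, CG5568 and CG11700 they lie beside the wild-type stage 8 points.

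Of the 94 genes, 89 were found in the current annotation and 21 of them now carry another symbol. Besides those named above, the products with an established role fall into several kinds. Pus10 (CG3709), a pseudouridine synthase that modifies RNA, averaged 11.9 ± 1.09 FPKM in EcRts, 22.8 ± 0.569 in wild-type stage 10 and 17.4 ± 0.683 in wild-type stage 8 follicles (SD, n = 3 each, as for the other means of this paragraph). Syp (CG17838), an RNA-binding protein, averaged 5.21 ± 0.419, 9.47 ± 0.60 and 11.0 ± 0.674 FPKM in the same order. Pus10 was thus between its EcRts and stage 10 values at stage 8, while Syp was highest at stage 8. Usp12-46 (CG7023), a deubiquitinase, averaged 13.2 ± 1.11 FPKM in EcRts, 24.0 ± 1.01 in wild-type stage 10 and 15.5 ± 0.347 in wild-type stage 8 follicles. Atg10 (CG12821), an E2-like enzyme of autophagosome formation, averaged 2.20 ± 0.340, 4.70 ± 0.465 and 4.62 ± 0.481 FPKM in that order. Its confidence limits implied 2 fragments in wild-type stage 10 replicate 2 and 45 to 131 in the other libraries.

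Further signalling and cytoskeletal genes were RalGPS (CG5522), an exchange factor for the GTPase Ral, and GMF (CG5869), which acts on actin branches made by the Arp2/3 complex. RalGPS had 12.9, 12.3 and 12.9 FPKM in EcRts, against 24.1, 25.8 and 24.0 FPKM in wild-type stage 10 and 19.9, 21.5 and 23.9 FPKM in wild-type stage 8 libraries. GMF had 15.3, 19.5 and 21.2 FPKM in EcRts, against 31.2, 29.4 and 33.1 FPKM in wild-type stage 10 and 17.5, 16.7 and 19.5 FPKM in wild-type stage 8 libraries. In RalGPS the EcRts libraries were below both wild-type groups, whereas in GMF they overlapped wild-type stage 8. Targ1 (CG33054), whose human counterpart removes ADP-ribose from proteins, averaged 17.5 ± 1.07 FPKM in EcRts, 30.4 ± 1.45 in wild-type stage 10 and 20.4 ± 1.55 in wild-type stage 8 follicles (SD, n = 3 each). Hayan (CG6361), a serine protease of the melanization cascade, had 1.3, 0.707 and 0.898 FPKM in EcRts, against 3.48, 3.74 and 3.52 FPKM in wild-type stage 10 and 3.48, 3.05 and 2.96 FPKM in wild-type stage 8 libraries. Its EcRts libraries were below all 6 wild-type libraries, with a ratio of 0.270 to wild-type stage 10.

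Hayan is the last of the 10 genes with the lowest ratio. CG4872, on X from 16775380 to 16776823 (dm3, as are all positions), had close values within each group, with 1.09, 1.16 and 1.22 FPKM in EcRts, against 5.51, 5.5 and 5.04 FPKM in wild-type stage 10 and 4.25, 3.79 and 4.38 FPKM in wild-type stage 8 libraries. The confidence limits implied 42 to 56 fragments in each EcRts library and 121 to 154 in each wild-type stage 10 library. It overlaps CG9104. CG13227 had 1.13, 0.389 and 0.0774 FPKM in EcRts, against 4.41, 3.76 and 2.99 FPKM in wild-type stage 10 and 4.78, 2.52 and 4.85 FPKM in wild-type stage 8 libraries, without overlap between EcRts and either wild-type group.

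CG6912 and CG3984 are neighbours on 3R, from 10960860 to 10962702 and from 10962870 to 10964626. CG6912 had 1.90, 2.75 and 2.11 FPKM in EcRts, against 8.56, 9.58 and 7.92 FPKM in wild-type stage 10 and 15.4, 13.8 and 13.3 FPKM in wild-type stage 8 libraries. CG3984 had 0.869, 1.02 and 1.07 FPKM in EcRts, against 3.77, 5.08 and 4.13 FPKM in wild-type stage 10 and 5.53, 5.46 and 6.98 FPKM in wild-type stage 8 libraries. In both, the 3 groups were separate and wild-type stage 8 was highest. CG42788, which ends before CG6912 at position 10957646, had a ratio of 0.493 and was instead highest at wild-type stage 10, with 3.78 ± 0.458 FPKM in EcRts, 7.67 ± 0.386 in wild-type stage 10 and 5.01 ± 0.112 in wild-type stage 8 follicles (SD, n = 3 each).

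**Figure D3:**
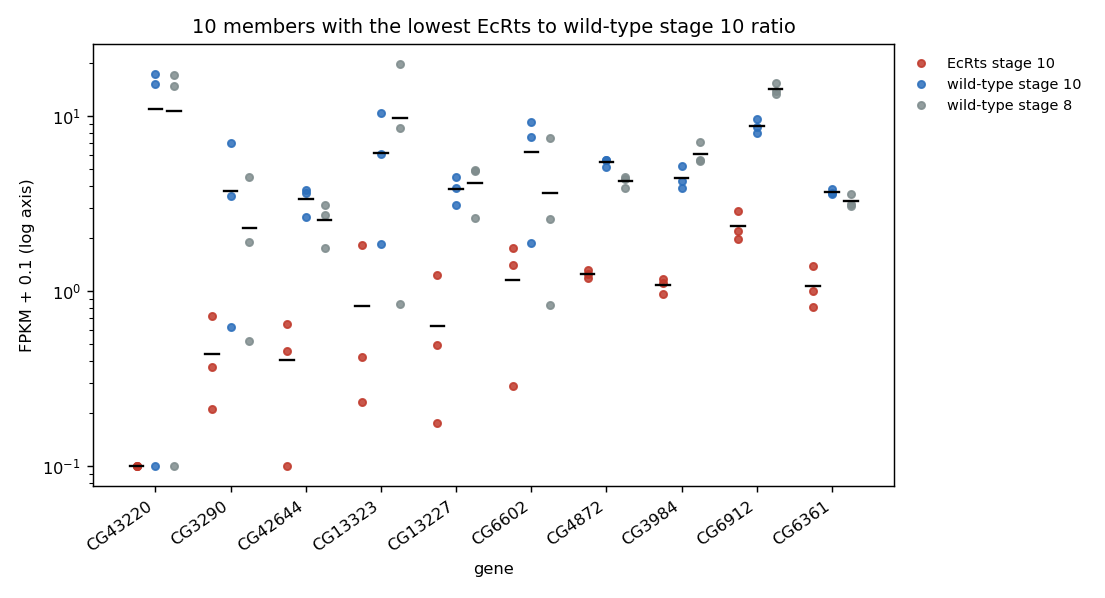
Points give FPKM + 0.1 in each library on a log axis for the 10 genes with the lowest ratio of EcRts to wild-type stage 10, with bars at the group means and EcRts stage 10, wild-type stage 10 and wild-type stage 8 from left to right within a gene. CG4872, CG3984, CG6912 and CG6361 have narrow groups, while CG43220, CG3290, CG13323 and CG6602 spread over most of their range within a wild-type group.

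The lowest ratio of all rests on almost no reads. CG43220, a gene of 35 residues on a transcript of 163 nt, was listed at 0 in all 3 EcRts libraries, at 15.1, 0 and 17.4 FPKM in wild-type stage 10 and at 0, 14.7 and 17.1 FPKM in wild-type stage 8 libraries. Each value above 0 implied 1 fragment, so the difference was not detectable at this depth. CG42644, on the unplaced scaffold U from 9338 to 16131, had 0.357, 0.552 and 0 FPKM in EcRts, against 3.68, 3.56 and 2.55 FPKM in wild-type stage 10 and 3.01, 2.62 and 1.67 FPKM in wild-type stage 8 libraries. Its EcRts libraries were below every wild-type library, while the wild-type stage 10 and stage 8 libraries overlapped. The confidence limits implied 2 and 3 fragments in EcRts replicates 1 and 2 and 9 to 15 in each wild-type stage 10 library.

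CG3290, CG13323 and CG6602, also among the 10 lowest ratios, varied widely within the wild-type groups. CG3290 had 0.271, 0.112 and 0.622 FPKM in EcRts, against 0.520, 6.94 and 3.41 FPKM in wild-type stage 10 and 4.37, 1.81 and 0.422 FPKM in wild-type stage 8 libraries. CG13323 had 0.320, 1.73 and 0.131 FPKM in EcRts, against 1.75, 5.97 and 10.4 FPKM in wild-type stage 10 and 8.43, 19.7 and 0.746 FPKM in wild-type stage 8 libraries. CG6602 had 0.188, 1.67 and 1.31 FPKM in EcRts, against 1.77, 9.13 and 7.53 FPKM in wild-type stage 10 and 7.44, 2.48 and 0.732 FPKM in wild-type stage 8 libraries. All 3 genes were low in wild-type stage 10 replicate 1 and in wild-type stage 8 replicate 3.

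That order was shared by more genes. The 10 genes with a coefficient of variation above 30% among wild-type stage 10 libraries were these 3, CG43220, CG13321, CG13905, CG32023, CG30016, CG10469 and CG3699. Of the 10, 8 were lowest in wild-type stage 10 replicate 1 and 9 were lowest in wild-type stage 8 replicate 3. They summed to 11.7, 24.2 and 9.39 FPKM in EcRts, to 34.0, 73.0 and 76.7 FPKM in wild-type stage 10 and to 60.9, 69.3 and 29.4 FPKM in wild-type stage 8 libraries. The other 84 genes summed to 1048, 1161 and 1131 FPKM in EcRts libraries. Their sums were 2337, 2300 and 2425 FPKM in wild-type stage 10 and 1776, 1754 and 1786 FPKM in wild-type stage 8 libraries. In 84 of those 84, all 3 EcRts libraries were below all 3 wild-type stage 10 libraries, beside 43.2% of all tested genes. The rule and the limit on spread nearly fixed that count in advance, so nothing is read from it.

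Markers of tissue that lies beside the ovary also differed between libraries. A Malpighian tubule list, chosen after the values had been seen and matched in 6 of 8 genes, summed to 6.57, 8.88 and 4.57 FPKM in EcRts, 7.33, 28.2 and 20.8 FPKM in wild-type stage 10 and 19.4, 8.07 and 3.00 FPKM in wild-type stage 8 libraries. Urate oxidase, Uro, a defining gene of that organ, had 4.15, 4.11 and 0.850 FPKM in EcRts, 2.77, 13.6 and 11.0 FPKM in wild-type stage 10 and 9.98, 2.70 and 0.538 FPKM in wild-type stage 8 libraries, and Lkr of that list was at or near 0 throughout. Like that of the 10 variable genes, the tubule sum was low in wild-type stage 10 replicate 1 and in wild-type stage 8 replicate 3. In wild-type stage 8 replicate 2 they differed. There the 10 genes had their highest stage 8 sum, 69.3 FPKM, and the tubule list had 8.07 FPKM, against 19.4 FPKM in replicate 1. A gut list, 10 of 10 genes matched, summed to 0.972, 0.206 and 4.77 FPKM in EcRts, to 92.3, 1.22 and 2.71 FPKM in wild-type stage 10 and to 7.88, 634 and 1.04 FPKM in wild-type stage 8 libraries. The part of such tissue in the values of the 10 genes was not tested. Without wild-type stage 8 replicate 2 and wild-type stage 10 replicate 1, which had the highest gut sums, 99 genes met the rule and 83 of them were among the 94. Without wild-type stage 10 replicates 2 and 3 and wild-type stage 8 replicate 1, which had the highest tubule sums, 96 met it and 78 were shared.

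**Figure D4:**
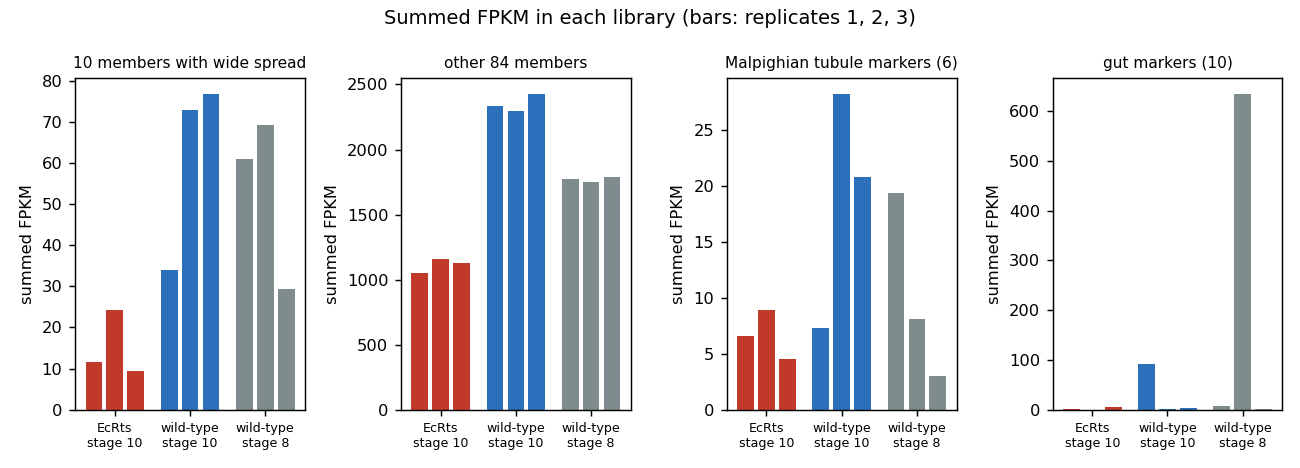
Bars give summed FPKM in each library, replicates 1 to 3 from left to right, for the 10 genes of wide spread, the other 84 genes, 6 Malpighian tubule markers and 10 gut markers, with EcRts stage 10 left of wild-type stage 10 and wild-type stage 8. The sums of the 84 genes are even within each group, while those of the 10 genes and of both marker lists are not.

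Other marker lists are read against the 33.9% of all 8340 tested genes called lower and the 9.93% called higher in EcRts than in wild-type stage 10, or against the 1090 lower and 2076 higher with scaling outside scaffolds. Of 17 muscle genes, which mark the sheath around the ovary, 10 were tested and 5 were higher and 0 lower in EcRts than in wild-type stage 10 in limma, with sums of 60.9 to 68.5 FPKM in EcRts, 48.2 to 53.7 in wild-type stage 10 and 32.4 to 40.9 in wild-type stage 8 libraries. Most of the muscle sum came from Act87E and Act57B, which were not among the 5. Of 12 germline genes 12 were tested, and 3 were lower and 1 higher in EcRts as deposited, but 0 were lower and 4 higher under each of the 3 other scalings; the calls over all genes shifted the same way. Of 13 follicle cell genes 13 were tested, and 4 were lower and 2 higher, with 3 to 6 lower and 2 to 4 higher under the other scalings. As deposited, Cp36, Cp38, Vm32E and Fas3 were lower, and Yp3 and tj higher. Cp38 averaged 1586 ± 554 FPKM in EcRts and 4624 ± 446 in wild-type stage 10, and Yp3 1855 ± 160 and 1421 ± 65.6 (SD, n = 3 each). Follicle cell sums were 26852 to 31045 FPKM in EcRts, 29860 to 35969 in wild-type stage 10 and 13097 to 20076 in wild-type stage 8 libraries. Germline sums were 1842 to 1921 FPKM in EcRts, 1891 to 2037 in wild-type stage 10 and 2107 to 2269 in wild-type stage 8 libraries, so the labelled tissue carried its defining markers. Hemocyte markers matched in 7 of 11 genes, with He listed at 0 throughout and nearly all of the sum from crq. Fat body markers, matched in 12 of 13 genes with 7 tested, had 3 lower and 0 higher and summed to 489 to 623 FPKM in EcRts, 575 to 594 in wild-type stage 10 and 474 to 480 in wild-type stage 8 libraries. Most of the fat body sum came from Adh, which averaged 466, 487 and 422 FPKM in the same order and was not called. Markers of neurons and of trachea summed to under 5 FPKM in every library. Oviduct and spermatheca markers reached 12.9 FPKM in wild-type stage 10 replicate 1 and at most 2.21 FPKM in the other libraries. The part of these tissues in the values of the 94 genes was not tested.

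At stage 8 the 94 genes were not alike, since the rule allowed wild-type stage 10 to lie from just above 0.6 to just below 2 times stage 8. The ratio of wild-type stage 10 to stage 8 was over 1.25 for 61 genes, over 1.5 for 33 of these, between 0.8 and 1.25 for 22 and under 0.8 for 11. In limma 49 of the 94 were called higher and 8 lower in wild-type stage 10 than in wild-type stage 8, beside 49.2% and 18.9% of all tested genes. All 3 wild-type stage 10 libraries were above all 3 stage 8 libraries for 54 genes, beside 51.4%, and below them for 9, beside 20.0%. The rule bounded this contrast on both sides, so nothing is read from these counts.

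Set against wild-type stage 8, the EcRts means formed a range from 0 to 1.14 times the stage 8 mean. In 32 genes the ratio was under 0.5, in 38 it was from 0.5 to 0.8, and in 24 it was above 0.8. The median ratio of wild-type stage 10 to stage 8 was 0.945, 1.34 and 1.74 in these 3 sets. Because the rule held EcRts to at most 0.6 times wild-type stage 10, a higher stage ratio was required in the higher sets. Nothing is read from that rise. All 3 EcRts libraries were below all 3 wild-type stage 8 libraries in 26, 28 and 6 genes of the sets. In all, that held for 60 of the 94 genes, beside 24.1% of all tested genes, and limma called 56 lower and 0 higher in EcRts than in wild-type stage 8, beside 21.5% and 39.8%. This contrast shares its libraries with the other 2 and is bounded by the rule.

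The set under 0.5 included the cases in which EcRts stage 10 was lower than both wild-type stages by a wide margin. CG8539 had 4.51, 7.96 and 8.58 FPKM in EcRts, against 26.8, 22.7 and 25.8 FPKM in wild-type stage 10 and 35.3, 29.8 and 30.8 FPKM in wild-type stage 8 libraries. CG7322 averaged 9.60 ± 0.613 FPKM in EcRts, 21.7 ± 1.88 in wild-type stage 10 and 30.04 ± 1.3 in wild-type stage 8 follicles (SD, n = 3 each). In both genes the order of the groups was EcRts, wild-type stage 10, wild-type stage 8 from low to high, without overlap. CG4098 differed little between the wild-type stages, with 7.19 ± 0.339 FPKM in EcRts, 18.8 ± 0.505 in wild-type stage 10 and 17.1 ± 0.794 in wild-type stage 8 follicles (SD, n = 3 each); the wild-type ratio was 1.10. CG33275 averaged 8.72 ± 0.183, 18.6 ± 0.950 and 19.2 ± 0.624 FPKM in the same order. These 4 genes were picked as examples after their values had been seen.

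In the set above 0.8 the EcRts means were close to the wild-type stage 8 means, and 8 of the 94 genes had an EcRts mean at or above stage 8. CG12112 had 24.8, 25.1 and 26.3 FPKM in EcRts, against 50.8, 51.5 and 57.1 FPKM in wild-type stage 10 and 29.4, 25.3 and 26.6 FPKM in wild-type stage 8 libraries. CG7130 had 8.09, 10.6 and 10.1 FPKM in EcRts, against 14.2, 20.4 and 16.6 FPKM in wild-type stage 10 and 9.0, 6.20 and 10.8 FPKM in wild-type stage 8 libraries. The EcRts and stage 8 libraries of both genes overlapped. These are also the 2 genes nearest to the upper limit on the stage ratio, at 1.96 and 1.97, and genes just beyond it, CG9498 at 2.0026 and CG42666 at 2.0225, were left out.

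**Figure D5:**
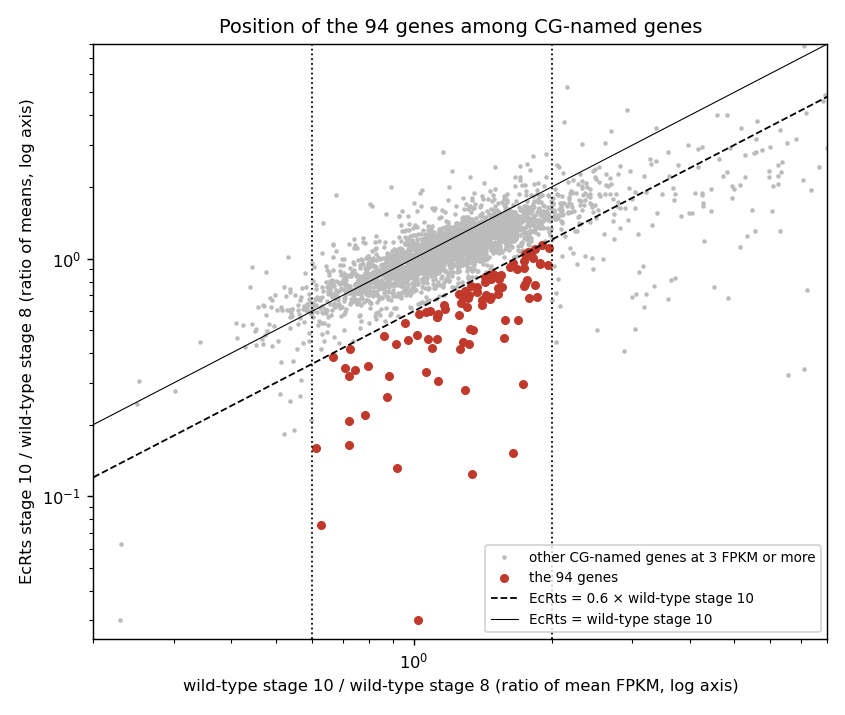
Each point is a CG-named gene at 3 FPKM or more, with the ratio of wild-type stage 10 to stage 8 on the x axis and that of EcRts stage 10 to wild-type stage 8 on the y axis, both as ratios of mean FPKM on log axes; genes listed at 0 in EcRts are drawn near the bottom edge and genes beyond the axes are not drawn. The 94 genes in red fill the area under the dashed line of 0.6 and between the dotted limits, densest in its upper right corner, where the stage ratio nears 2 and EcRts lies near stage 8.

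The other limits cut through a continuous range as well. Just inside the limit of 0.6 on EcRts over wild-type stage 10 were CG13123 and CG3176, both at 0.599, and just outside were CG13295 at 0.603 and CG31751 at 0.604. Just inside the level of 3 FPKM at wild-type stage 10 were CG42857 at 3.01 and CG16778 at 3.17 FPKM, and just outside were CG31686 at 2.97 and CG3270 at 2.96 FPKM. Just inside the lower limit on the stage ratio were CG6912 at 0.613 and CG13323 at 0.626, and just outside were CG17816 at 0.596 and CG17029 at 0.568. CG17816 averaged 3.35 ± 0.608 FPKM in EcRts, 9.58 ± 1.79 in wild-type stage 10 and 16.1 ± 1.72 in wild-type stage 8 follicles (SD, n = 3 each), much like CG6912.

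In position, 5 of the 94 genes (5.32%) lay on heterochromatic or unplaced scaffolds, beside 18 (0.581%) of the other CG-named genes at or above 3 FPKM. CG40472, on 3LHet from 410462 to 411042, had 74.6, 99.7 and 82.1 FPKM in EcRts, against 246, 223 and 272 FPKM in wild-type stage 10 and 185, 189 and 205 FPKM in wild-type stage 8 libraries. CG40002, now ND-AGGG and an accessory subunit of respiratory complex I, lies on the same scaffold from 459586 to 460458 and had 49.7, 72.8 and 65.2 FPKM in EcRts, against 162, 152 and 189 FPKM in wild-type stage 10 and 119, 123 and 132 FPKM in wild-type stage 8 libraries. The EcRts libraries of both were below all 6 wild-type libraries. Both products have 94 residues in the current annotation, and if they are copies of each other the division of reads between them is uncertain.

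CG40178 and the pseudogene CG41320, also on 3LHet, had ratios of EcRts to wild-type stage 10 of 0.428 and 0.361, and CG42644 on U had 0.0929. CG40178 averaged 6.95 ± 0.670 FPKM in EcRts, 16.3 ± 1.60 in wild-type stage 10 and 15.1 ± 1.70 in wild-type stage 8 follicles, and CG41320 averaged 1.94 ± 0.171, 5.39 ± 0.80 and 6.09 ± 1.04 FPKM in the same order (SD, n = 3 each). All 3 EcRts libraries were below all 6 wild-type libraries in all 5 scaffold genes. Over all tested genes, 43.2% had EcRts below all wild-type stage 10 libraries and 24.1% below all stage 8 libraries. The rule used the stage 10 contrast, so nothing is read from this count. The share of all summed FPKM on scaffolds was instead higher in EcRts than in wild-type stage 10 libraries, as given above. Among the 18 scaffold genes outside the 94, CG40801, CG2893 and CG41503 had a ratio of EcRts to wild-type stage 10 of at least 1. All others of the 18 had a ratio under 1. CG17169 at 0.242, CG17159 at 0.390 and CG41378 at 0.397 were left out only by the upper limit on the stage ratio.

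On the assembled chromosomes 16 of the 94 genes (17.0%) were on 2L, 21 (22.3%) on 2R, 15 (16.0%) on 3L, 21 (22.3%) on 3R, 16 (17.0%) on X and 0 on 4. The same shares among the other CG-named genes were 17.6%, 18.7%, 19.7%, 24.8% and 18.2%, with 14 genes on 4. The median transcript was 1372 nt, beside 1776 nt, and the median protein 302.5 residues, beside 404 residues. The median number of exons was 3 in both, and 12.4% of the genes had a single exon, beside 11.0%. A gene that overlaps another gene was as frequent among the 94 (46.8%) as among the others (47.1%). Among genes named above, CG4098, Tspo, Pus10, Syp, Usp12-46, Atg10, GMF, Targ1, CG11555, CG13373 and CG5568 also overlap other genes. The limit given for CG2911 holds for them too. CG43961 and CG42254 are now annotated as noncoding RNAs, and CG42254 is antisense to BEAF-32, so reads from where it overlaps BEAF-32 cannot be told apart.

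Within 10 kb of another of the 94 genes lay 16 genes in 7 clusters. The same count was not made for other CG-named genes, so nothing is read from it. Near the start of 2L, CG11454 (143309 to 144227) and Pus10, the deposited CG3709 (153539 to 155305), had ratios of EcRts to wild-type stage 10 of 0.537 and 0.522. CG11555 (273918 to 274766) and CG3625 (283384 to 291751), also on 2L, had 0.582 and 0.474. On X, CG13373 (371017 to 372224) and CG3176 (375895 to 376691) had 0.502 and 0.599. On 2R, CG30338 (5481552 to 5487010) and CG12926 (5495633 to 5497792) had 0.527 and 0.583.

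CG9380 on 2R, from 21071151 to 21142841, spans CG30428, from 21140837 to 21142058. CG9380 averaged 2.47 ± 0.677 FPKM in EcRts, 8.26 ± 0.212 in wild-type stage 10 and 9.46 ± 1.57 in wild-type stage 8 follicles, and CG30428 averaged 3.18 ± 0.294, 8.59 ± 1.23 and 4.63 ± 1.04 FPKM in the same order (SD, n = 3 each). Both were lowest in EcRts, but only CG30428 was lower at stage 8 than at wild-type stage 10 in means. CG31274 and EMC2A (CG17556) overlap on 3R, with CG18622 next to them, and had ratios of 0.453, 0.567 and 0.597. Overlap here is of whole loci, introns included. Overlapping genes may share reads, so their values may not be independent.

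Genes around the 94 that did not belong to them had ratios near those of the whole table. The median log2 ratio of EcRts to wild-type stage 10 was -0.17 over 35 tested genes that overlap one of the 94, -0.11 over 312 within 10 kb and -0.13 over 523 between 10 and 50 kb, beside -0.12 over all 8340 tested genes. A ratio of at most 0.6 was found in 1, 24 (7.69%) and 46 (8.80%) of these neighbours, beside 723 (8.67%) of all tested genes.

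Genes of the ecdysone response that have names could not be among the 94. Of a list of 26, 19 were tested in limma between EcRts and wild-type stage 10, 6 were lower and 3 higher in EcRts, beside 33.9% and 9.93% of all tested genes. Nothing particular to the list is read from these counts. The median log2 difference of the 19 was -0.02, beside -0.12 over all tested genes. With scaling outside scaffolds 3 were lower and 7 higher, and under median-of-ratios scaling and quantile normalization 5 were lower and 5 higher. Eip74EF, Eip93F and ImpL2 stayed lower and Hr4, Hr46 and usp stayed higher under all 3. Eip74EF, an early response transcription factor, averaged 4.97 ± 0.279 FPKM in EcRts and 11.2 ± 0.823 in wild-type stage 10 follicles, a log2 difference of -1.03 (limma, adjusted p = 0.00011). ImpL2, a secreted protein that binds insulin-like peptides, averaged 43.7 ± 2.87 FPKM in EcRts and 86.4 ± 9.98 in wild-type stage 10 follicles, a difference of -0.96 (limma, adjusted p = 0.0010). Hr4, a nuclear receptor of the response, was higher, with 4.51 ± 0.486 FPKM in EcRts and 2.13 ± 0.244 in wild-type stage 10 follicles, a difference of 0.82 (limma, adjusted p = 0.0041; SD, n = 3 each for all 3 genes). The leading gene by level, Eip55E, averaged 104 ± 1.76 FPKM in EcRts and 95.7 ± 4.06 in wild-type stage 10 follicles and did not pass as deposited (limma, adjusted p = 0.075), though it was called higher under all 3 other scalings.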

How the data were processed

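Poly(A) RNA of 9 follicle samples was sequenced from TruSeq v2 libraries, per the labels' protocols. Cufflinks 2.02, TopHat2 2.0.7, Bowtie2 2.0.6, CASAVA 1.8.2 and the dm3 build appear in the submitters' processing notes. The authors deposited gene-level FPKM with confidence limits and a status; the sources used here give neither annotation release nor strand setting. The 94 genes and all lists were chosen with earlier results of these data known.

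Group means of the deposited FPKM were used unscaled. The 8340 genes that reached 1 FPKM in 3 or more libraries were tested with limma 3.58.1 in R 4.3.3, with a trend, on log2(FPKM + 1), which understates changes of low genes, and Benjamini-Hochberg adjustment; 17 genes whose estimate failed and was listed at 0 were left out, none of them among the 94. The procedure was tested on simulated data. Implied fragments are the squared ratio of 2 times FPKM to the distance of its upper limit. Loci are the deposited dm3 loci counted from 1. Names, lengths and exons come from a current Ensembl annotation, in which 14926 identifiers matched. Named are the 10 genes of lowest ratio, the 10 of highest level, those next to the limits, neighbours within 10 kb, renamed genes of certain function and leading list genes. Alternatives were 3 scalings, other limits, filters and pseudocounts, a replicate block, and leaving out libraries. Protein similarity and promoter motifs were not analysed here. No 2 libraries were identical (0 pairs). Among the renamed genes, 1 is not reported here.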

Additional observations from a re-analysis of the deposited data

How the results depend on the processing

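The number of genes that met the rule was 94 as deposited, 60 with libraries scaled to equal summed FPKM outside scaffolds, 142 at a level of at least 1 FPKM, 50 at a ratio of at most 0.5 and 209 at a ratio of at most 0.7. It was 70 under median-of-ratios scaling and 88 under quantile normalization, and 88 to 103 when 1 library was left out. Of the 94 genes, 58 met the rule in all 9 leave-one-out settings, 51 under all 3 scalings and 41 under both. The median log2 ratio of EcRts to wild-type stage 10 over the genes was -1.03 as deposited, -0.91 under median-of-ratios scaling, -0.85 with scaling outside scaffolds, -1.13 over the 50 genes that overlap no other gene (added after seeing the data), and -1.06 to -0.98 when 1 stage 10 library was left out. Scaling moved the median of all genes from -0.12 to 0.06 at most. Calls over all tested genes were 2826 lower and 828 higher in EcRts than in wild-type stage 10 as deposited, 1587 and 1625 under median-of-ratios scaling, 1654 and 1663 under quantile normalization and 1090 and 2076 with scaling outside scaffolds. Among the 94 genes, 82 were called lower as deposited, 80 to 82 under the 3 scalings and 79 to 85 when 1 library was left out. Within 5 kb of another of the 94 genes lay 9 genes, in place of 16 within 10 kb. Same-numbered libraries correlated in their deviations at -0.039 to 0.230 and others at -0.235 to 0.167, so the numbers were not taken as pairs. With the replicate block, 82 genes were called lower in EcRts than in wild-type stage 10 (31.0% of all tested genes), 48 higher in wild-type stage 10 than in stage 8 (48.3%; 49 without the block) and 56 lower in EcRts than in wild-type stage 8 (20.9%). The other alternatives kept their counts within 1.5 times the deposited ones. Depth limits the genes of few implied fragments, above all CG43220.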
